A study of Caenorhabditis elegans with 2 samples.

Results

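Of the 30000 candidate binding regions called on the pooled CHD-7 reads, 27707 overlapped no peak of the reproducible list, and 11838 of those had their summit inside protein-coding sequence. These 11838 sub-threshold coding candidates, called members here, are 39.5% of all pooled candidates and 42.7% (95% Wilson interval 42.1 to 43.3) of the candidates outside the reproducible list. A candidate was a member when its interval did not overlap any reproducible peak by 1 bp and its summit, the position of highest signal in the interval, lay in a coding exon of the Ensembl annotation of genome build WBcel235, which is ce11. The choice used the interval and the summit position, and through the reproducible list it used the pooled signal. The lowest signal in that list was 166, and no candidate outside it had a higher one or a pooled rank better than 1885. A low rank and a weak signal are therefore part of the definition. Membership does not show that a region itself failed to agree between replicates. The other 15869 candidates outside the reproducible list served for comparison, and 43.7% of them had their summit in an intron of a protein-coding gene.

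The data came from chromatin immunoprecipitation and sequencing (ChIP-seq) of a tagged chromatin remodeller in whole Caenorhabditis elegans. Strain OP609 carries the unc-119(tm4063) allele and the wgIs609 transgene, which expresses CHD-7 with GFP and FLAG at its C terminus, and an antibody to GFP was used. Mixed-sex young adults were taken 67 h after synchronisation as starved first-stage larvae, with 2 biological replicates in 1 group, so no second condition was compared. The transgene brings its own copy of chd-7, so reads of chd-7 in the genome and in the transgene cannot be told apart, and whole animals mix all tissues.

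CHD-7 corresponds to CHD7 of vertebrates. Both are chromodomain helicases; such an enzyme uses ATP to move nucleosomes, and CHD7 is known mainly from enhancers and promoters. Peak lists made as input for a reproducibility filter are lenient by design and hold background along with peaks, so a region left under the threshold is a candidate and not a called binding site.

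The sequences below show what the members look like at the strong end of the list, where both replicates ranked them best, in the genes that collected most of them, and where a single replicate met them. Each is a window of 101 bp centred on the summit, read from the RefSeq copy of WBcel235 on the strand of the gene, 5′ to 3′, with coding bases in capitals and intron bases in lower case. The vha-19 window (chrIV:3370783-3370883, plus strand) and the zyx-1 window (chrII:13071321-13071421, plus strand) hold strong members. The rpc-2 window (chrIII:5557628-5557728, plus strand) and the gcy-11 window (chrX:17055449-17055549, minus strand) belong to the members with the best ranks in both replicates. The unc-44 window (chrIV:5978940-5979040, plus strand), the ttn-1 window (chrV:6165472-6165572, minus strand) and the Y54G2A.11 window (chrIV:2766421-2766521, minus strand) hold the strongest member of a gene with many. The icd-1 window (chrII:6588228-6588328, minus strand) and the magu-2 window (chrV:8793156-8793256, minus strand) were met by replicate 1 alone, and the trm-2A window (chrV:908933-909033, plus strand) and the bli-6 window (chrIV:6377678-6377778, plus strand) by replicate 2 alone.
vha-19: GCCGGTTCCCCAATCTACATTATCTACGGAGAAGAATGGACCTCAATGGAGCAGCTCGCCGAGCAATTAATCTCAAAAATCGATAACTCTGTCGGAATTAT
zyx-1: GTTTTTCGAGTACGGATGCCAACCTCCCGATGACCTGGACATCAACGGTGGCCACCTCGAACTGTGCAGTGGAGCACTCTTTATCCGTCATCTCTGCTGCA
rpc-2: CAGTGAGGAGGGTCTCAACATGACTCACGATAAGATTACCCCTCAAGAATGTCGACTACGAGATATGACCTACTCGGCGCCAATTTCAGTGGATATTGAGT
gcy-11: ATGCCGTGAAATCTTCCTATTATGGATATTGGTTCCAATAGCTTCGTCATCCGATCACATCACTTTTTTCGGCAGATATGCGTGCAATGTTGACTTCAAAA
unc-44: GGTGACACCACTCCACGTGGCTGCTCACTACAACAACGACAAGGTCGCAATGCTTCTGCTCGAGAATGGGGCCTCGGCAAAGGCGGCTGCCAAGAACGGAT
ttn-1: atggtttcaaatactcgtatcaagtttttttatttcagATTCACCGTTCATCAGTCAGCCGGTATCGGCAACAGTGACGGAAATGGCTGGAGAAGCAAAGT
Y54G2A.11: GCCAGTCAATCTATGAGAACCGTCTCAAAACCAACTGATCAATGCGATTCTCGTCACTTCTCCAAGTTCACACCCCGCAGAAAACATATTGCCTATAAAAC
icd-1: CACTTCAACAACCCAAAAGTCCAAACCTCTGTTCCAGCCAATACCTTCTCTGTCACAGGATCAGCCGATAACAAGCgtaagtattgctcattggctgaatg
magu-2: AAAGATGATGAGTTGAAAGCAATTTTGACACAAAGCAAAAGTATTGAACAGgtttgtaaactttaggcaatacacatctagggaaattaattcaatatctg
trm-2A: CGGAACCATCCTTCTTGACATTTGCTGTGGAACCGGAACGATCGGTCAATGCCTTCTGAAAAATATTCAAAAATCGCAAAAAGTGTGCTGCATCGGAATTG
bli-6: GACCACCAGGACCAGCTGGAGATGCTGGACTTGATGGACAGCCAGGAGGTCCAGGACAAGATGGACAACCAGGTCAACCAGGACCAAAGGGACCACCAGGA
The magu-2, icd-1 and ttn-1 windows cross an exon border, with 51, 76 and 63 coding bases, and the other 8 windows are coding throughout. Their GC content ran from 30.7% in magu-2 to 58.4% in unc-44 and in bli-6, where the repeated Gly-X-Y codons of a cuticle collagen can be read.

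Coding sequence covers 24.6% of the 100272607 bp of the 6 nuclear chromosomes, while it held 42.7% of the summits outside the reproducible list. Among the 1884 reproducible peaks the share was lower, at 13.3%, or 251 summits. Along the pooled ranking the coding share of sub-threshold candidates was 29.8% at ranks 1 to 3000, reached 46.7% at ranks 12001 to 15000, and was 42.3% at ranks 27001 to 30000. Coding summits were thus a larger share of the candidates below the strongest ones than among them.

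The members had a signal, the peak caller's own value for each interval, of 49 to 166 with a median of 72.1. Their pooled ranks ran from 1890 to 29997. The deposited −log10 q had a median of 0.363 and a highest value of 2.47, and 564 members (4.76%) had a q under 0.05, beside 7.68% of the other candidates. At the border of the reproducible list, which follows the pooled signal, the values were continuous. The 3 reproducible coding summits just above it lay in icd-2, which encodes a subunit of the nascent polypeptide-associated complex, at rank 1883, in rbm-26 at rank 1879 and in tpxl-1, the worm TPX2 relative, at rank 1876, all with a signal of 166. The 3 members just below lay in vha-19, a subunit of the vacuolar proton pump, at rank 1890 with a signal of 166, and in the zinc finger gene ztf-26 at rank 1898 and the zyxin gene zyx-1 at rank 1905, both with a signal of 165.

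Next in order came members in eif-2Bdelta, unc-51, alh-7, smgl-2, pod-1, chd-7 and pkg-2, all with a signal of 165 and ranks from 1907 to 1920. They include the autophagy kinase gene unc-51 and pod-1, which encodes a coronin-like actin regulator. All 10 strongest members were met by both replicates, but not alike. The pod-1 member stood at rank 886 in replicate 1 and 6479 in replicate 2, and the pkg-2 member at rank 586 and 4514. The vha-19 member went the other way, with rank 4800 in replicate 1 and 1450 in replicate 2. For the pkg-2 member the replicate 2 summit lay 318 bp away, outside its interval. Rank 4514 therefore belongs to an entry that reaches into that interval.

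Members were met by both replicates in 55.9% of cases (6615 of 11838), by replicate 1 alone in 29.3%, by replicate 2 alone in 11.3% and by neither in 3.55%. A member counts as met when an entry of the replicate's list overlaps it by at least 1 bp. Each list holds 30000 entries, with a median width of 364 bp in replicate 1 and 420 bp in replicate 2. Nearly all members are 390 bp wide (11829 of 11838). The share that would be met by position alone was not computed. The pooled list also holds the reads of both replicates, so being met is not independent support. Replicate 1 met 85.1% (84.5 to 85.8) of members and 78.5% (77.9 to 79.1) of the other candidates, with 81.3% over all candidates outside the reproducible list. Replicate 2 met 67.2% (66.3 to 68) of members and 74.7% (74.0 to 75.4) of the others, with 71.5% over all. Members minus other candidates came to 6.64 percentage points for replicate 1 and to -7.54 for replicate 2. By position, members had the highest share met by replicate 1 and the lowest met by replicate 2, since the other position classes lay between 76.3% (intergenic) and 81.6% (exons of non-coding genes) in replicate 1 and between 72.2% (exons of non-coding genes) and 80.8% (UTR exons) in replicate 2. The share met by both was close in the sets, 55.9% of members and 57.0% of the others. The intervals cover counting error only. With 2 libraries there is no replicate spread against which to set the difference between them, and no test was made.

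The same order was seen in all 10 bins of 3000 pooled ranks. At ranks 1 to 3000, replicate 1 met 98.4% of members and 95.4% of the others, and replicate 2 met 99.1% and 99.6%. At ranks 27001 to 30000, replicate 1 met 64.7% and 53.5%, and replicate 2 met 45.1% and 53.2%. At the weak end 24% of members were met by both replicates, beside 97.5% at the strong end. The order was therefore present at matched pooled ranks.

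**Figure D1:**
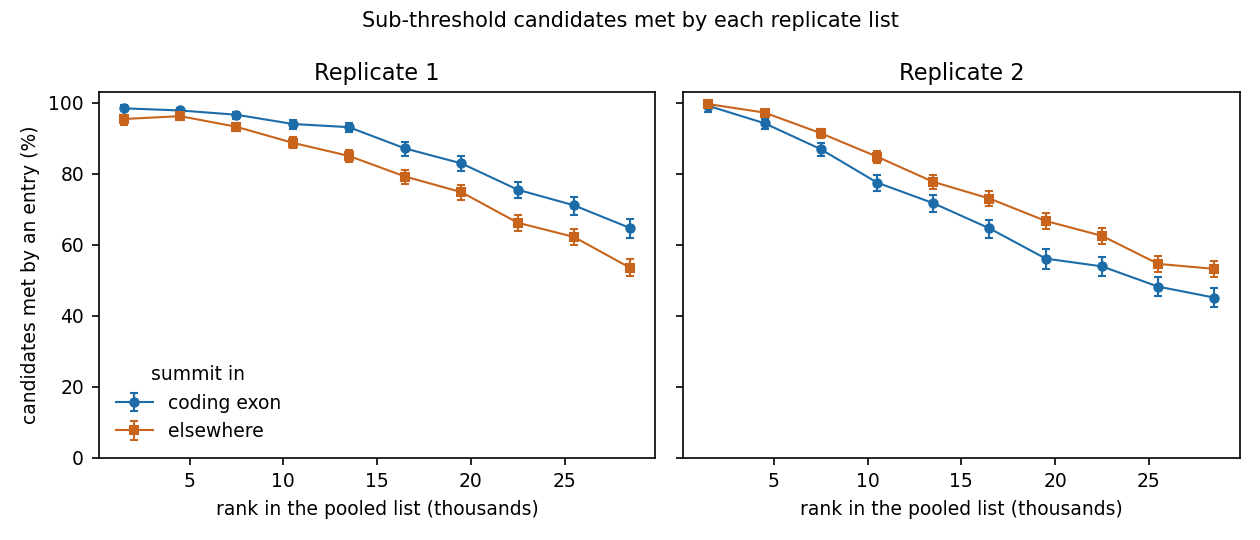
Share of sub-threshold candidates met by an entry of replicate 1 (left) and replicate 2 (right), in percent, in bins of 3000 ranks of the pooled list, for summits in coding exons (circles) and elsewhere (squares), with 95% Wilson intervals. Coding candidates lie above the others in replicate 1 and below them in replicate 2 in all 10 bins, and every share is lower at ranks 27001 to 30000 than at ranks 1 to 3000.

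The make-up of the 2 lists differed in the same direction, which is another view of the same entries and not a separate result. Outside the reproducible peaks, 46.9% of the entries of replicate 1 (13063 of 27879) and 34.6% of those of replicate 2 (9530 of 27552) had their summit in coding sequence. Among the members met by both, 58.2% ranked better in replicate 1, beside 46.7% of the other candidates met by both. Across these 6615 members the pooled rank had a Spearman rho of 0.60 with the rank in replicate 1 and 0.42 with that in replicate 2, and the 2 replicate ranks had a rho of 0.23. The pooled list holds the reads of both replicates, so the first 2 values are not independent of it. The median distance from a member's summit to the nearest summit of an entry meeting it was 25 bp in replicate 1 and 39 bp in replicate 2. An entry could meet several members, since 18.4% of those met by replicate 1 and 21.4% of those met by replicate 2 shared an entry with another member.

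Few members stood near the top of a replicate. The 1884 strongest entries of replicate 1, as many as the reproducible list has, met 1.99% of members and 1.85% of the other candidates. Those of replicate 2 met 0.541% and 2.22%. In both replicates 6 members were met by such entries, in rpc-2, gcy-11, ZK632.9, F53C3.6, R12B2.8 and idpc-1. The same count was not made for the other candidates, so this number cannot be set against theirs. The gcy-11 member, in a receptor guanylate cyclase gene, had ranks 1591 and 1468, and the ZK632.9 member 1053 and 1688. The rpc-2 gene encodes a subunit of RNA polymerase III, and its member stood out, with ranks 405 and 301 but a pooled rank of 25657 and a signal of 55. Its interval begins 5 bp past a reproducible peak with a signal of 352, and the replicate summits lie 214 bp and 262 bp from its own, so the ranks belong to entries that reach into it. Meeting only by entries that also overlap a reproducible peak was rare. It was seen for 2 members in replicate 1 (in rpc-2 and dnj-19) and 8 in replicate 2. A more distant replicate summit was not rare. Of the members met, 69.7% in replicate 1 and 57.0% in replicate 2 had a replicate summit within 50 bp. The F53C3.6 member had them at 7 bp and 216 bp, and the R12B2.8 member at 213 bp and 0 bp. Within 1000 bp of a reproducible peak lay 6.07% of members and 6.75% of the other candidates.

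The strongest members met by replicate 1 alone were in che-1, the zinc finger factor that specifies a pair of taste neurons, with a signal of 151, in F39B2.3 with 145 and in klu-2 with 141. All 3 lie on chromosome I. The strongest met by replicate 2 alone were in trm-2A with a signal of 163, in the cuticle collagen gene bli-6 with 162, and in F52B10.3 with 154. The strongest met by neither were in cnt-2 at 107, C48B6.9 at 102 and ddi-1 at 94.8. Members met by neither thus began lower in the list than those met by a single replicate.

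The members lay in 6862 of 19973 protein-coding genes, or 34.4% (33.7 to 35), which is the background for each count of genes below. Of these genes, 4183 (61.0%) held exactly 1 member, 1584 held 2, 597 held 3 and 229 held 4. Another 269 genes (3.92%) held 5 or more and together 15.1% of members, and 26 genes held 10 or more and 2.90% of members. The 100 genes with most members held 7.57%. The members were therefore spread over many genes, with no small set of genes holding most of them. In 2 cases the summit lay in the coding sequence of a pair of genes, R02F2.6 with R02F2.10 and tbh-1 with H13N06.7, and it was counted for each.

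At least 1 member met by both replicates was present in 4294 of the 6862 genes (62.6%). Replicate 1 met 81.8% (80.6 to 83.0) of members that were alone in their gene, 86.6% in genes with 2 to 4, 87.9% in genes with 5 to 9 and 89.5% (85.8 to 92.3) in genes with 10 or more. Replicate 2 met 62.9% (61.5 to 64.4), 69.9% (68.8 to 71.1), 69.7% (67.3 to 72) and 61.2% (56.0 to 66.2) in the same groups, so its share was higher in the middle groups than at either end. The median signals ran from 71.5 to 72.7. Of the 269 genes with 5 or more members, 177 had more members met by replicate 1 and 36 had more met by replicate 2. Over all members the shares were 85.1% for replicate 1 and 67.2% for replicate 2, which is the same order.

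Longer coding sequence collected more members. The genes with a member had a median coding length of 1311 bp and those without had 888 bp, and the number of members had a Spearman rho of 0.40 with coding length over the 19973 protein-coding genes. Coding length here is the merged length over all transcripts. A member was present in 13.3% of genes under 500 bp and in 91.0% of those of 8000 bp or more. Per kb of coding sequence the range was narrower, from 0.424 members per kb at 500 to 1000 bp to 0.598 at 4000 to 8000 bp, beside 0.479 over all 24701 kb. Neighbouring members of a gene had their summits a median of 994 bp apart over 4978 pairs, and the closest pair was 199 bp apart. Since nearly all members are 390 bp wide, the closest pairs overlap and still count as separate members in the numbers per gene and per kb.

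The genes with most members were long genes of varied function. The ankyrin gene unc-44 (WBGene00006780, chrIV:5975557-6004857) held 22 members, 2.11 times the 10.4 that its length gives at the average density. The titin gene ttn-1 (WBGene00006436, chrV:6120909-6202632) held 20, which is 0.753 times its share by length, since its coding sequence of 55.4 kb would hold 26.6. The obscurin gene unc-89 and the spectraplakin gene vab-10 held 19 each, at 1.63 and 1.69 times. The gene dig-1, for a giant extracellular matrix protein, held 16, or 0.851 times, and the twitchin gene unc-22 held 16, or 1.52 times. The ubiquitin ligase gene eel-1, with 17, stood between vab-10 and dig-1. Among all these, ttn-1 and dig-1 held fewer than their length gives.

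Others of the 15 genes with most members were well above their length. The 17 members of eel-1 lay in 12.6 kb, or 2.83 times its share. The filamin gene fln-1 held 12 in 7.5 kb, at 3.34 times, and znfx-1, for a helicase of germ granules, held 12 in 7.33 kb, at 3.42 times. The kettin gene ketn-1 and the myotactin gene let-805 held 14 each, clec-78 and lrp-1 held 13, the hemicentin gene him-4 held 12, and lrp-2 held 11. The genes pks-1, sma-1 and unc-52 also held 11, and lrp-2 was taken from this tie by symbol; pks-1 held 0.987 times its share by length. All 15 genes had at least as many members met by replicate 1 as by replicate 2, the order seen over all members (85.1% and 67.2%). The gap was wide in unc-44, with 21 against 10, in ttn-1, with 19 against 7, and in eel-1, with 16 against 6, and there was none in clec-78 or lrp-1, with 11 each.

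**Figure D2:**
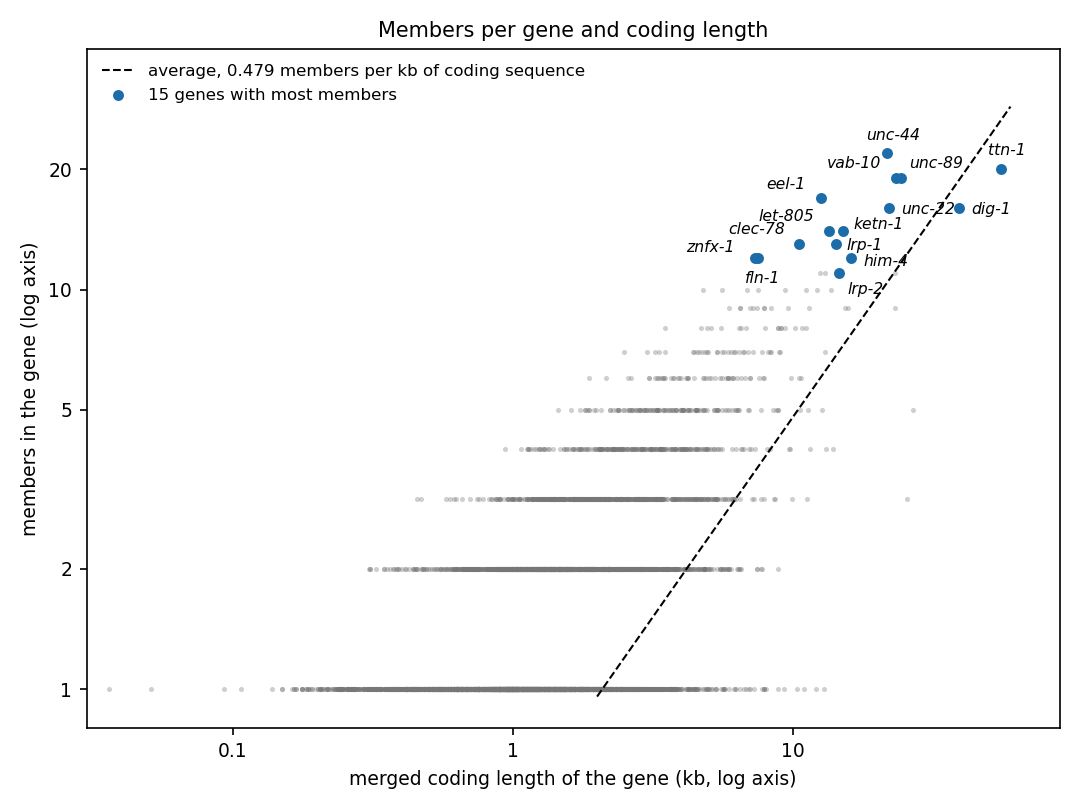
Each point is a gene with at least 1 member, placed by its merged coding length (kb, log axis) and its number of members (log axis); the dashed line is the average density of 0.479 members per kb. Of the 15 labelled genes, ttn-1 and dig-1 lie under the line and the other 13 above it.

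Per kb of coding sequence, and among genes with 5 or more members, the densest was Y54G2A.11 (WBGene00021876, chrIV:2765715-2771792) with 5 members in 1.45 kb, or 3.46 per kb. Next were aak-2, a catalytic subunit of AMP-activated kinase, with 3.19 per kb, mak-1, a kinase gene, with 3.09, W02H5.8 with 2.88, zfp-3 with 2.80, mvk-1, for mevalonate kinase, with 2.80, trm-2A with 2.76, the proton pump gene vha-13 with 2.75, cgp-1 with 2.72 and the Meis-type homeobox gene unc-62 with 2.68. A minimum of 5 members favours dense genes among short ones, so these values only describe the top of the list. All 5 members of trm-2A were met by replicate 2 and 2 of them by replicate 1, and aak-2 also had more met by replicate 2, with 5 against 4. The other 8 had at least as many met by replicate 1.

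The gene chd-7 itself held 7 members in 8.90 kb of coding sequence, 1.64 times its share by length, with signals of 165, 132, 132, 127, 126, 110 and 55.7. Replicate 1 met all 7 and replicate 2 met 6. The 2 members with signals of 127 and 126 were met by the same entry in each replicate, at ranks 6369 and 2236. The gene also has a reproducible peak in its body or in the 1000 bp upstream. The rescue marker unc-119 had no member in its 0.732 kb of coding sequence, where 0.351 would be its share by length.

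Genes with a member more often had a reproducible peak than genes without, although most had none. A reproducible summit lay in the gene or in the 1000 bp upstream for 11.3% (10.5 to 12) of genes with a member and for 4.55% (4.20 to 4.92) of genes without. Within genes of 1000 to 2000 bp of coding sequence the values were 11.5% and 4.25%, and in genes under 500 bp they were 6.73% and 4.64%. The gap was thus present among genes of like coding length, and neither intron length nor GC content was matched. By distance, members were not nearer to reproducible peaks than the other candidates, with the 6.07% and 6.75% within 1000 bp given above.

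Members lay in GC-rich coding sequence. In windows of 151 bp centred on the summit the median GC content was 45% for members, 41.7% for the other candidates, 47.7% for reproducible coding summits and 39.7% for 246912 windows placed along all coding sequence. Such windows can run into intron, and all coding bases taken alone had a GC content of 42.9%. Members lay in longer exons (median 324 bp, beside 251 bp under a coding base). The part of exon length in the gap was not tested. By the GC content of the coding sequence of a gene, in 5 groups of about equal numbers of genes, the density rose at each step, from 0.109 members per kb in the group of lowest GC, through 0.296, 0.465 and 0.625, to 0.905 in that of highest GC. The share of genes with a member went from 9.49% to 51.4% over the same groups.

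Meeting by replicates also went with GC. Members met by both had a median GC of 45.7%, those met by replicate 1 alone 44.4%, those met by replicate 2 alone 43.7% and those met by neither 42.4%. Over 4 groups of members from low to high GC, replicate 1 met 79.9%, 84.7%, 86.7% and 88.9%, and replicate 2 met 64.3%, 64.1%, 67.4% and 72.4%. The median signal rose over the same groups, from 67.2 to 79. Within each of these GC groups members were met more often by replicate 1 than the other candidates were and less often by replicate 2. In the highest group the values were 88.9% and 84.3% for replicate 1 and 72.4% and 75.6% for replicate 2. The part of GC content in the shares met was not tested.

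**Figure D3:**
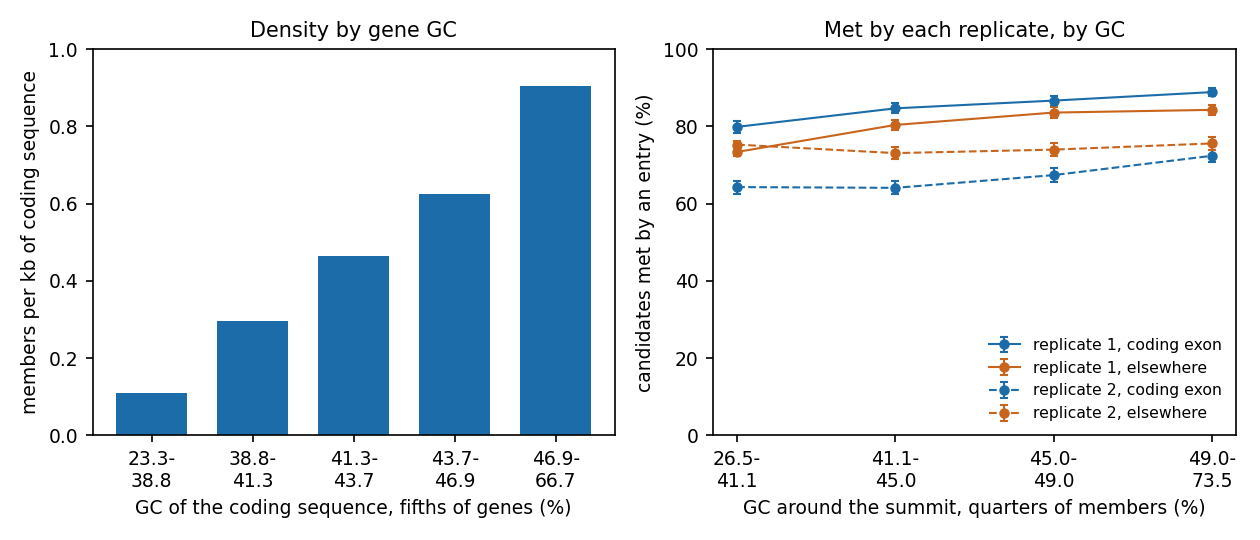
Left, members per kb of coding sequence in 5 groups of genes by GC content of their coding sequence (bars). Right, share of candidates met by replicate 1 (solid lines) and replicate 2 (dashed lines) in 4 groups by GC in the 151 bp around the summit, for coding summits and others, with 95% Wilson intervals. Density rises from 0.109 to 0.905 per kb, and the order of coding and other candidates holds in each GC group.

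By gene class and coding length, members were densest in the lists of the vacuolar proton pump, the respiratory chain, the cuticle collagens and the proteasome, and sparsest in the chemoreceptors and the F-box and MATH-domain genes. These departures were smaller among genes of like GC content. The classes were 29 lists of genes made from gene symbols, holding 4040 genes, and each was set against the number of members that its coding length gives at the average density. The exact Poisson intervals cover counting error only and treat members of a gene as independent, which they need not be. By length, 13 lists had an interval above 1, 5 had an interval below 1, and 11 had an interval that held 1.

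Among the dense lists, the vacuolar proton pump, which acidifies organelles, had 24 members in 12 of 20 genes, 2.09 times its share (1.34 to 3.10), with 5 members each in vha-13 and vha-6. Genes of the respiratory chain and ATP synthase stood at 1.99 times (1.40 to 2.76), with 36 members in 24 of 47 genes. The cuticle collagens, which form the worm's exoskeleton, stood at 1.93 times (1.64 to 2.25), with 157 members in 107 of 173 genes. The gene with most in that list was col-99, with 5, which the symbol put there although it encodes a transmembrane collagen, and bli-1 was next with 3. The proteasome also stood at 1.93 times, with members in 22 of 33 genes, or 1.24 times among genes of like GC content. Heat shock proteins and chaperones stood at 1.80 times, with 73 members in 40 of 66 genes, and cytosolic ribosomal proteins at 1.74 times, with 33 members in 31 of 81 genes, or 0.925 times among genes of like GC content. Translation factors stood at 1.66 times and germline and oocyte genes at 1.62 times, or 1.17 and 1.18 times among genes of like GC content. Genes of lipid synthesis and fat metabolism stood at 1.56 times, or 1.35 times among genes of like GC content. In that list the acetyl-CoA carboxylase gene pod-2 held 9 members and the fatty acid synthase gene fasn-1 held 6. Mitochondrial ribosomal proteins at 1.40 times and aminoacyl-tRNA synthetases at 1.34 times had intervals that held 1, both with a lower bound of 0.973. The RNA polymerase II and spliceosome list stood at 1.52 times, or 1.15 times among genes of like GC content. It had 7 members in ama-1, the gene of the largest polymerase II subunit. The vitellogenins, or yolk proteins, had 22 members in 5 of 6 genes at 1.58 times, with an interval that held 1 (0.990 to 2.39), and at 0.988 among genes of like GC content. These genes are near-identical copies in part, so reads may have been shared among them.

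Lists of structural genes stood nearer to 1. The basement membrane and extracellular matrix list stood at 1.36 times (1.13 to 1.61) but 1.03 among genes of like GC content. Of its 130 members, 19 lay in the spectraplakin gene vab-10, which its symbol put there. The muscle sarcomere list stood at 1.27 times (1.06 to 1.51) but 0.996 among genes of like GC content. The cytoskeletal motors and tubulins, the list that holds unc-44, stood at 1.26 times (1.05 to 1.49), or 1.14 among genes of like GC content. Chromatin remodellers and histone modifiers, the class of CHD-7 itself, stood at 1.15 times (0.965 to 1.36) and at 0.977 among genes of like GC content, with 10 members in trr-1 and 9 in set-16.

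The sparse lists were the chemoreceptors, the F-box and MATH-domain genes, the ion channels, the cytochrome P450 genes and the nuclear hormone receptors. The chemoreceptors, a family of odour and taste receptors expressed in few neurons, had 173 members in 152 of 1316 genes, at 0.275 times their share (0.236 to 0.319). The F-box and MATH-domain genes had 78 members in 66 of 400 genes, at 0.396 times (0.313 to 0.494), or 0.755 times among genes of like GC content. Ion channels stood at 0.573 times, cytochrome P450 genes at 0.630 times and nuclear hormone receptors at 0.730 times. Among genes of like GC content these were 0.735, 1.04 and 0.918 times. Replicate 1 met 76.3% of chemoreceptor members and replicate 2 met 51.4%, beside 85.1% and 67.2% over all members. Their median signal of 63.1 was the lowest of the 29 lists. The C-type lectins, another large family with 240 genes, stood at 1.03 times (0.854 to 1.22), and at 0.910 among genes of like GC content.

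GC content moved with these values. The median GC of a gene was 55.1% in the cuticle collagens and 37.1% in the chemoreceptors. When the expected number was taken by coding length within the 5 GC groups of genes, an alternative chosen after seeing the data, the cuticle collagens went from 1.93 to 1.04 times, the respiratory chain from 1.99 to 1.17, and the cytosolic ribosomal proteins from 1.74 to 0.925. The chemoreceptors went from 0.275 to 0.695 and the cytochrome P450 genes from 0.630 to 1.04. The vacuolar proton pump at 1.58, the heat shock proteins and chaperones at 1.43 and the lipid genes at 1.35 were then farthest above 1, and the histones, with 12 members and genes that are near-identical copies, were lowest at 0.50. On this scale 22 of 29 lists kept their side of 1.

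**Figure D4:**
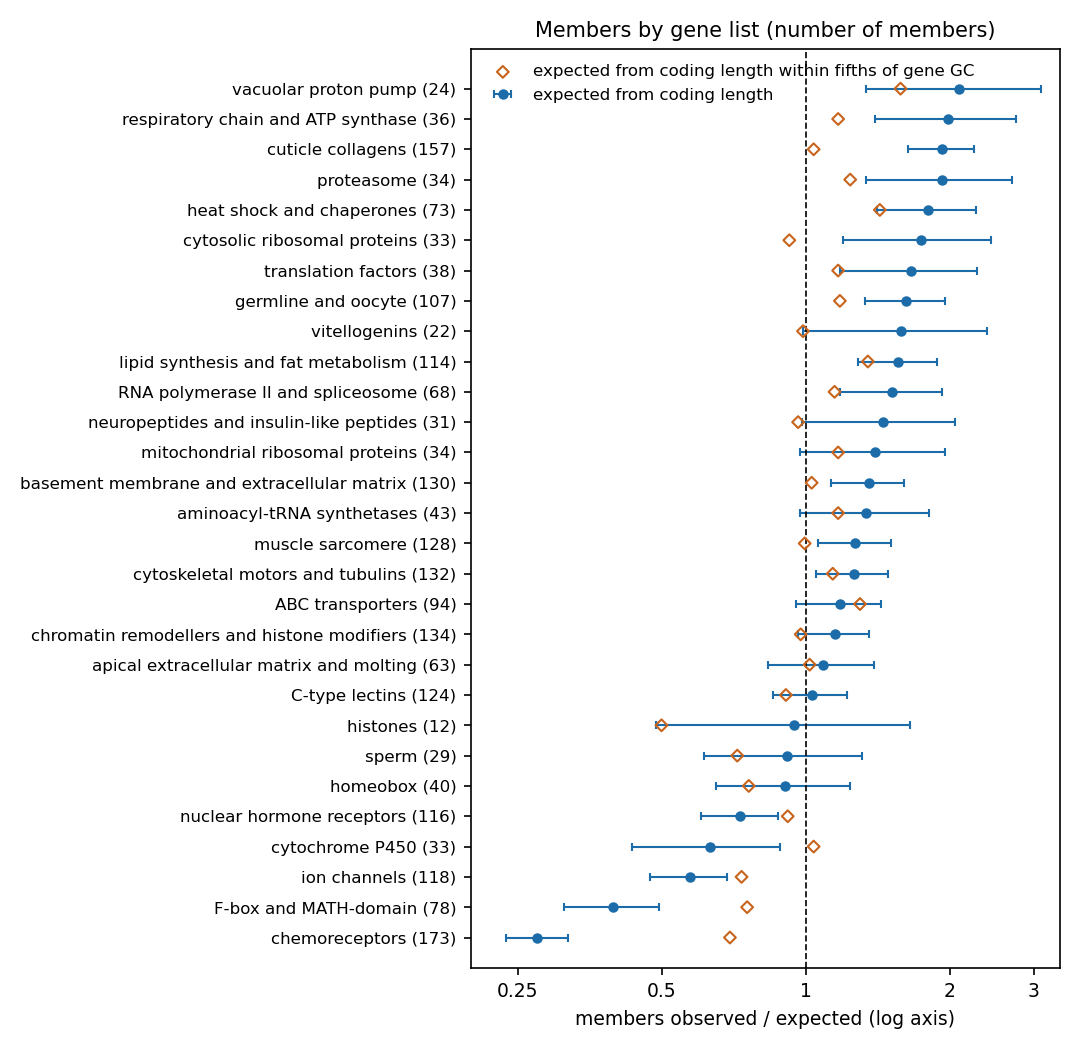
Members observed over expected (log axis) for 29 gene lists, with the number of members in brackets. Filled circles with exact Poisson 95% intervals take the expected number from coding length, and open diamonds take it from coding length within 5 groups of genes by GC; the cuticle collagens move from 1.93 to 1.04 and the chemoreceptors from 0.275 to 0.695.

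Pooled over all genes, members leaned towards long exons. Along the coding sequence they leaned towards the 3′ side, short of its end. Exons of the same gene were not compared with each other. The coding exon under a member had a median length of 324 bp, beside 251 bp for the exon under a coding base taken at random and 145 bp over all coding exons. The density rose with exon length, from 0.300 members per kb in exons under 150 bp, which held 15.7% of members and 25% of coding bases, to 0.675 in exons of 1200 bp or more. With the coding sequence of genes of 1000 bp or more cut into 10 equal segments, the first held 8.64% (8.08 to 9.23) of 9110 members, the eighth 11.8% (11.1 to 12.5), the ninth 12% (11.3 to 12.6) and the last 9.50%, where 10% each would be even. First and last coding exons held 9.94% and 15.6% of members, beside 10.9% and 15.3% of coding bases.

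**Figure D5:**
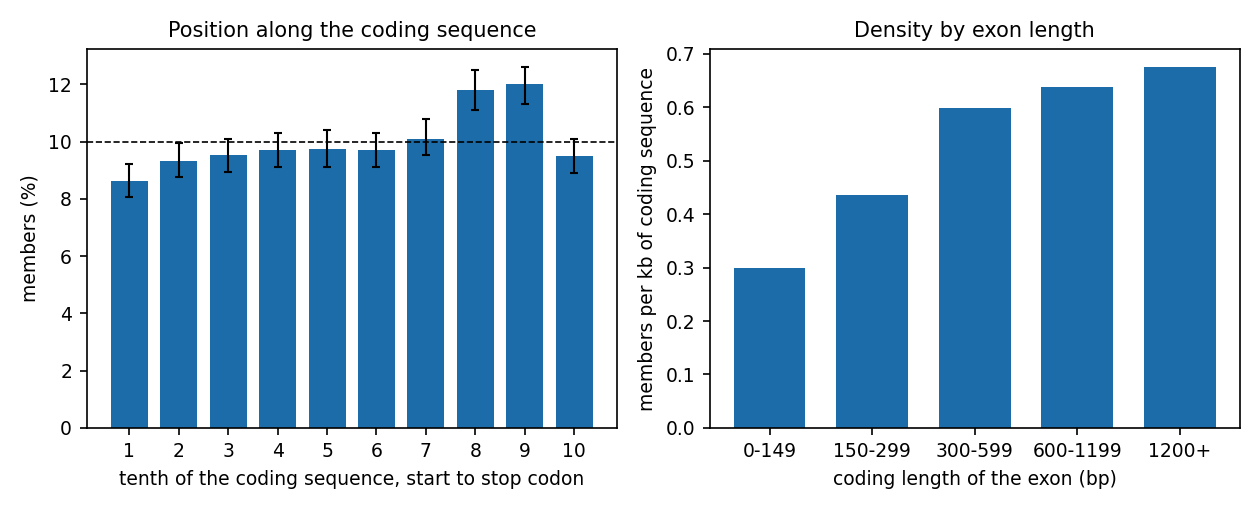
Left, percent of 9110 members in 10 equal segments of the coding sequence from start to stop codon, with 95% Wilson intervals and a dashed line at 10%. Right, members per kb of coding sequence by coding length of the exon, which goes from 0.300 in exons under 150 bp to 0.675 in those of 1200 bp or more.

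Across chromosomes the density ran from 0.409 members per kb of coding sequence on chromosome V to 0.545 on chromosome III, with 0.524 on the X chromosome. The X chromosome held 15.7% of members and 20.1% of the other candidates. Replicate 1 met between 84.5% and 86% of members on every chromosome and replicate 2 between 64.7% and 70%, so the gap between replicates was present on each. On the autosomes, the left, central and right parts of the chromosomes, taken as equal lengths, had 0.501, 0.443 and 0.482 members per kb.

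Members were rarely beside small non-coding RNA genes. Their summits lie in protein-coding sequence by definition, while 7.86% of the other candidates had theirs in an exon of a non-coding gene. The comparison is therefore unequal by definition. A tRNA gene lay within 100 bp of the summit of 1 member, in F22G12.4, beside 156 of the other candidates (0.983%) and 4 of the 251 reproducible coding summits. A snoRNA gene lay as near to 8 members (0.0676%) and 56 of the others (0.353%).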

How the data were processed

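ChIP-seq peak lists from 2 biological replicates of 1 group of young adults were used. Per the labels and the notes deposited with the samples, the authors called peaks against 1 control for each replicate and for their pool, kept peaks and background as input for IDR (irreproducible discovery rate), and thresholded a reproducible list; no source used here gives the aligner, the caller, the IDR cutoff or the read depth. The deposited values are a signal per interval, with no scaling given, a −log10 q value and the summit. The ce10 lists, the control and the reads were not analysed here.

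Candidates were joined to Ensembl release 115 (WBcel235) coding exons with Python 3.11.15, pandas 2.3.3, numpy 2.4.6 and scipy 1.17.1, and overlaps were checked on simulated intervals. Of the coding sequences, 99.8% open with ATG on the RefSeq genome used. Ranks follow signal, separately in each list. Intervals are 95% Wilson or exact Poisson intervals, for counting error only. No p-value was computed.

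Named are the 15 genes with most members, the 10 strongest members, the 10 densest genes among those with 5 or more members, the 5 members best in both replicates, the first 2 genes of each list where shown, the 3 members and reproducible summits at the border, and chd-7 and unc-119. The sixth member in the top entries of both replicates, the strongest members met by 1 replicate or neither and the genes named for counts of 2 or fewer were added after their values were seen. The icd-1 and magu-2 members shown as sequences had a signal of 135. They were not the strongest met by replicate 1 alone, and no rule for their choice is given. Members, lists and tests were chosen with earlier results of these data known. The alternatives changed what counts as touching a reproducible peak, the list length, repeated intervals, the definition of coding, the overlap, and the replicates used; the expected number within GC groups was added after seeing the data.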

Additional observations from a re-analysis of the deposited data

How the results depend on the processing

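With only the 15000 strongest pooled candidates there were 5460 members in 3959 genes, 45 of them with 5 or more, as fewer candidates enter, and replicate 1, replicate 2 and both met 95.4%, 83.0% and 78.9%. With coding taken as 50% of the interval, the coding share was 41.9%. From the list of a single replicate the coding share ran from 34.6% (replicate 2 alone) to 46.9% (replicate 1 alone), and the genes with 5 or more members from 141 to 306; of the 6141 and 7457 genes with a member in those lists, 4722 and 5866 were shared with the 6862. With the member's summit inside a replicate interval, replicate 1, replicate 2 and both met 79.1%, 59.9% and 44.6%; with 50% of the member covered, 79.1%, 60% and 44.6%; with the 15000 strongest entries of each replicate, 53.3%, 36.6% and 22.2%. The cause of these shifts was not tested beyond the fewer entries used. Members minus other candidates ranged from 3.97 to 7.25 percentage points for replicate 1 and from -6.28 to -11.2 for replicate 2 over these settings and that of 1 transcript per gene. Of 29 gene lists, 29 kept their side of 1 with the longest coding sequence per gene, 24 with the 15000 strongest candidates, 26 without replicate 1 and 28 without replicate 2. Counting only summits inside a reproducible interval as touching, counting repeated intervals once, and using 1 transcript per gene moved no count by over 1.5 times. No paired analysis was possible because there is 1 group. Read depth is unknown, so a member met by a single replicate may be below what the other library could detect.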

Other observations

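Families named by symbol stem, taken after their values were seen and only where a stem had at least 20 genes, spanned the range of the gene lists. Their ratios use coding length alone, with no interval and no grouping by GC content, which brought several lists nearer to 1. The lowest ratios rest on very few members. The hsp genes (heat shock proteins) had 29 members in 12 of 22 genes, 2.51 times their share by coding length. The grl genes (ground-like, hedgehog-related proteins) had 26 members in 18 of 31 genes, 2.22 times. At the other end, the srz chemoreceptor genes had 2 members in 63 genes, 0.0684 times their share, the pals genes had 1 member in 38 genes, 0.0542 times, and none of the 29 fipr genes held a member.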
